A study of Mus musculus with 12 samples.

Results

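The bone morphogenetic protein (BMP) ligands and BMP antagonists of the nCounter mouse PanCancer Pathways panel were examined across control eyes, *RBS* ocular lesions and Shh-type medulloblastomas (Shh-MBs). The members were the panel genes with the symbols of 7 ligands (*Bmp2*, *Bmp4*, *Bmp5*, *Bmp6*, *Bmp7*, *Bmp8a* and *Gdf6*) and 2 antagonists (*Nog* and *Bambi*), and all 9 of 9 were found among the 770 genes measured. The panel counts barcoded probes hybridized to RNA without amplification. The deposited value is a normalized signal on a linear scale. It was taken as signal above background, although the background setting is not given.

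*RBS* lesions (n = 5) came from Rax-creERT2::Ctnnb1(ex3)Fl/+SmoM2Fl/+ embryos whose mothers received tamoxifen at E8.5, and the eyes were taken at E18.5. In these embryos *Rax*, a gene of early retinal precursors, drives a tamoxifen-dependent Cre. Cre then removes an exon of *Ctnnb1* on 1 allele, which stabilizes beta-catenin, and switches on SmoM2, a constantly active Smoothened. Control eyes (n = 4) came from E18.5 embryos that carry Ctnnb1(ex3)Fl/+SmoM2Fl/+ without Cre. The labels do not state whether the controls were exposed to tamoxifen. Shh-MBs (n = 3) were hindbrain tumors of hGFAP-cre::SmoM2Fl/+ mice at postnatal day 14, in which Cre is driven in neural precursors by a human *GFAP* promoter and the *Ctnnb1* allele is not part of the genotype. Each sample was 1 fresh-frozen eye, lesion or tumor of its own animal. Shh-MBs thus differ from both eye groups in tissue and age as well as genotype, and these cannot be told apart.

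BMPs are secreted dimers that bind type I and type II receptors, whereupon Smad1, Smad5 and Smad9 are phosphorylated and enter the nucleus with Smad4. The *Id* genes are among their classical targets. Antagonists act outside the cell by trapping the ligand, as Noggin does, or at the membrane, as the pseudoreceptor Bambi does. In the eye, BMPs take part in lens induction and in the dorsal patterning of the optic cup, and in the cerebellum BMPs oppose the Shh-driven division of granule neuron precursors.

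Promoter sequences show where the transcription of *Bmp5* and *Bmp6* starts, the 2 of the 6 members differing between *RBS* lesions and control eyes for which an entry was at hand, and they moved in opposite directions. Entries of RefSeq (build GRCm38.p6), from 250 bases before to 50 bases after the gene start, were matched for 4 of 9 members (*Bmp4*, *Bmp5*, *Bmp6* and *Bmp8a*). The *Bmp5* promoter is at chr9:75775115-75775414 and the *Bmp6* promoter at chr13:38345466-38345765, both on the plus strand. Capitals mark the reverse-strand match of the core letters of a Gli site, CCACCCA.
Bmp5: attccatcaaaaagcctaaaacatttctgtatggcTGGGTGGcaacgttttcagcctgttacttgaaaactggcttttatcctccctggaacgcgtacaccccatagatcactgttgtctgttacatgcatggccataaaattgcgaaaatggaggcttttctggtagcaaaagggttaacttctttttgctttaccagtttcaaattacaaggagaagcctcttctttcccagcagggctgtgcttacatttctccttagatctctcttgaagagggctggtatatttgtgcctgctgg
Bmp6: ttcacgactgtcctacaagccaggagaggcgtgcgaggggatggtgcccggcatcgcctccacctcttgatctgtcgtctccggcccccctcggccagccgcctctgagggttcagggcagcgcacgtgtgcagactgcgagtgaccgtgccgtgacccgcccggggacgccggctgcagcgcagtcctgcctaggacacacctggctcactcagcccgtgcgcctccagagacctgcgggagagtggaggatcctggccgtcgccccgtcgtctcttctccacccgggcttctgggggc
Searched on both strands, CCACCCA was found in 1 place of the *Bmp5* promoter and in none of the other 3, and 9.3% of 32851 promoters of 300 bases hold it. The Tcf/Lef core CTTTGAT (in 3.73% of all promoters), the BMP-responsive GC element GGCGCC (11.9%) and the TATA box TATAAA (13.6%) were in none of the 4. A match of letters is a description and not a binding site. GC content was 43.3% for *Bmp5*, 69.3% for *Bmp6*, 64% for *Bmp4* and 62% for *Bmp8a*, against a median of 52.7% over all promoters.

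Counts above background were estimated by dividing signal by the median spacing of neighbouring low values of the sample. Signal corresponded to an estimated 590200 to 716684 such counts per control eye, 541092 to 707210 per Shh-MB and 335392 to 637795 per *RBS* lesion. Between 52 and 123 genes per sample stood at the sample's lowest value, at which no level can be read. The probes for *Ctnnb1* and *Smo* do not test the recombination. *Ctnnb1* signal was 5467 to 5869 in control eyes, 4661 to 5191 in Shh-MBs and 7400 to 8364 in *RBS* lesions, and *Smo* signal was 147 to 178, 142 to 186 and 156 to 193. Differences are given as log2(signal + 1) with the standard error (SE) of limma's moderated test, and a gene was called at an adjusted p under 0.05 (Benjamini-Hochberg over 770 genes). The deposited scaling left the median log2 difference of all genes at 0.17 for *RBS* against control, 0.53 for *RBS* against Shh-MB and -0.22 for Shh-MB against control. Centring each sample on its median moved these to -0.01, -0.32 and 0.44. The share of calls that were higher went from 64.5% to 50%, from 79.1% to 36.2% and from 23.4% to 69.1%. The comparisons with Shh-MBs therefore depend most on the scaling, and differences below are to be read against these medians.

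Comparing *RBS* lesions with control eyes addressed which BMP genes go with joint Shh and Wnt activation in the embryonic eye. *Bmp2*, *Bmp5* and the antagonist *Nog* were higher in *RBS* lesions, and *Bmp6*, *Gdf6* and the antagonist *Bambi* were lower. Thus 6 of 9 members were called, 3 in each direction, where 51.2% of all genes were called, 33% higher and 18.2% lower. In the same 6 members the groups did not overlap, as for 43.4% of all genes. The share of members called was near that of the panel. With the methods' t-test and step-down Bonferroni adjustment 0 of 9 members were called, against 6 with Benjamini-Hochberg adjustment of the same test and 6 at its unadjusted p under 0.05. The median difference was -0.22 for the members and 0.17 for all genes. Ligands and antagonists were both split, with 2 of 7 ligands higher and 2 lower, and 1 of 2 antagonists each way.

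**Figure D1:**
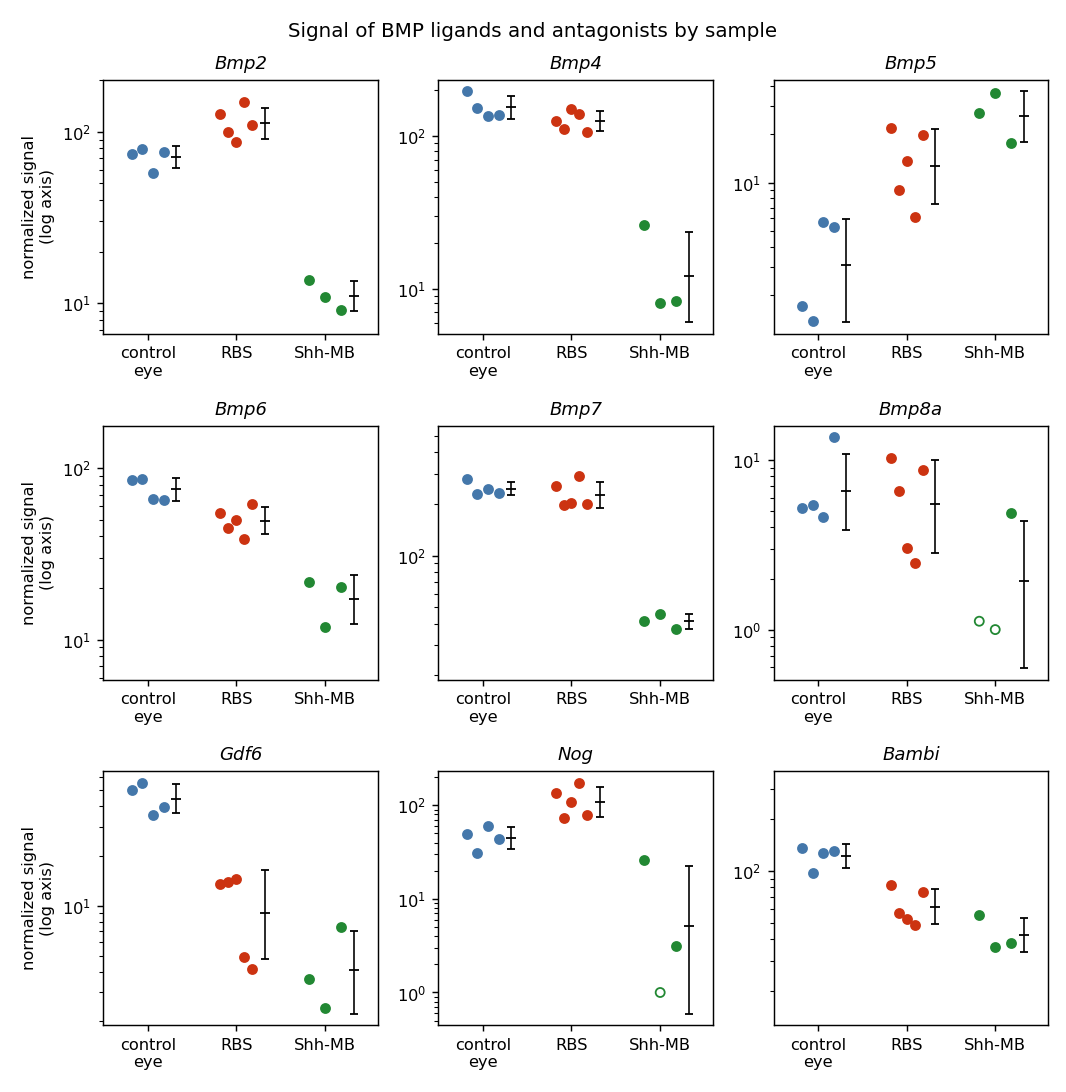
Signal of the 9 BMP ligands and antagonists in each sample (log axis); points are samples, open circles are samples at their lowest value, and bars give the mean and SD of log2(signal + 1). *RBS* lesions lie above all control eyes for *Bmp2*, *Bmp5* and *Nog* and below them for *Bmp6*, *Gdf6* and *Bambi*.

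Of the ligands that were higher, *Bmp2* encodes a ligand with roles in heart, bone and dorsal eye development. Its signal was 74.5, 79.4, 57.7 and 76.1 in control eyes 1 to 4, and 127, 99.7, 86.8, 148 and 110 in *RBS* lesions 1 to 5. Every lesion lay above every control eye, by 0.65 on the log2 scale (SE 0.169, 95% interval 0.27 to 1.03, adjusted p = 0.0106). The group means were 71.9 ± 9.70 (SD, n = 4) and 114 ± 24.0 (SD, n = 5).

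*Bmp5* encodes a ligand of the same subgroup as *Bmp6* and *Bmp7*. In control eyes its signal was 1.71, 1.38, 5.66 and 5.30, of which the first 2 amount to 1.5 and 1.4 counts above background and give no readable level, and in *RBS* lesions it was 21.8, 9.01, 13.6, 6.08 and 19.7. The lowest lesion lay only just above the highest control eye, and the spread among lesions was wide. The log2 difference was 1.76 (SE 0.446, 95% interval 0.75 to 2.77, adjusted p = 0.00926), and its size depends on the added 1. With all values under 20 set to 20, the call was lost (log2 difference 0.0237, adjusted p = 0.557), since only *RBS* lesion 1 then lay above the floor. The call was also lost in a limma fit with a block for the replicate number (log2 difference 1.61, adjusted p = 0.0566).

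Of the ligands that were lower, *Gdf6* takes part in dorsal eye patterning, and mutations in it are known from eye malformations. Control eyes had a signal of 49.8, 55.1, 35.4 and 39.7, whereas *RBS* lesions had 13.6, 13.9, 14.5, 4.87 and 4.14. All lesions were below all control eyes, and lesions 4 and 5 were set apart below the other 3. The log2 difference of -2.18 (SE 0.380, adjusted p = 0.00123) was the largest fall among the members.

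*Bmp6*, known as a regulator of iron through hepcidin, had a signal of 85.0, 86.5, 66.2 and 64.7 in control eyes. In *RBS* lesions it was 54.6, 44.6, 49.7, 38.6 and 61.8. The groups did not overlap, but the gap between the highest lesion and the lowest control eye was small. The log2 difference was -0.60 (SE 0.158, adjusted p = 0.0116).

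*Bmp4*, *Bmp7* and *Bmp8a* were not called in this comparison. *Bmp4*, which is needed for lens induction, had a signal of 136 to 198 in control eyes and 107 to 152 in *RBS* lesions, with a log2 difference of -0.30 (SE 0.151, 95% interval -0.64 to 0.04, adjusted p = 0.133). It was called lower after median centring (log2 difference -0.48, adjusted p = 0.0192) and after quantile normalization (-0.48, adjusted p = 0.0114). *Bmp7*, needed for eye and kidney development, had a signal of 228 to 277 and 196 to 292 (log2 difference -0.12, 95% interval -0.43 to 0.20, adjusted p = 0.526), so that the lesions covered the control range on both sides. *Bmp8a*, best known from the male germ line, had a signal of 4.59 to 13.6 and 2.46 to 10.3. Its interval of -1.19 to 0.75 leaves differences in both directions, and its sign turned when control eye 4 (0.10) or *RBS* lesion 4 (0.01) was left out.

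The antagonists went opposite ways. *Nog*, encoding the secreted ligand trap Noggin, had a signal of 49.8, 30.8, 59.8 and 43.8 in control eyes and 137, 73.8, 109, 174 and 79.1 in *RBS* lesions. Each lesion was above each control eye (log2 difference 1.26, SE 0.286, 95% interval 0.61 to 1.91, adjusted p = 0.00539). In a fit that takes its spread from all 12 samples the call was lost (adjusted p = 0.119).

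*Bambi*, encoding a receptor-like membrane protein without a kinase domain, had a signal of 137, 96.7, 127 and 131 in control eyes. The *RBS* lesions had 82.5, 56.8, 52.4, 48.3 and 75.5, all below the control eyes. The log2 difference was -0.97 (SE 0.185, 95% interval -1.39 to -0.55, adjusted p = 0.00209).

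**Figure D2:**
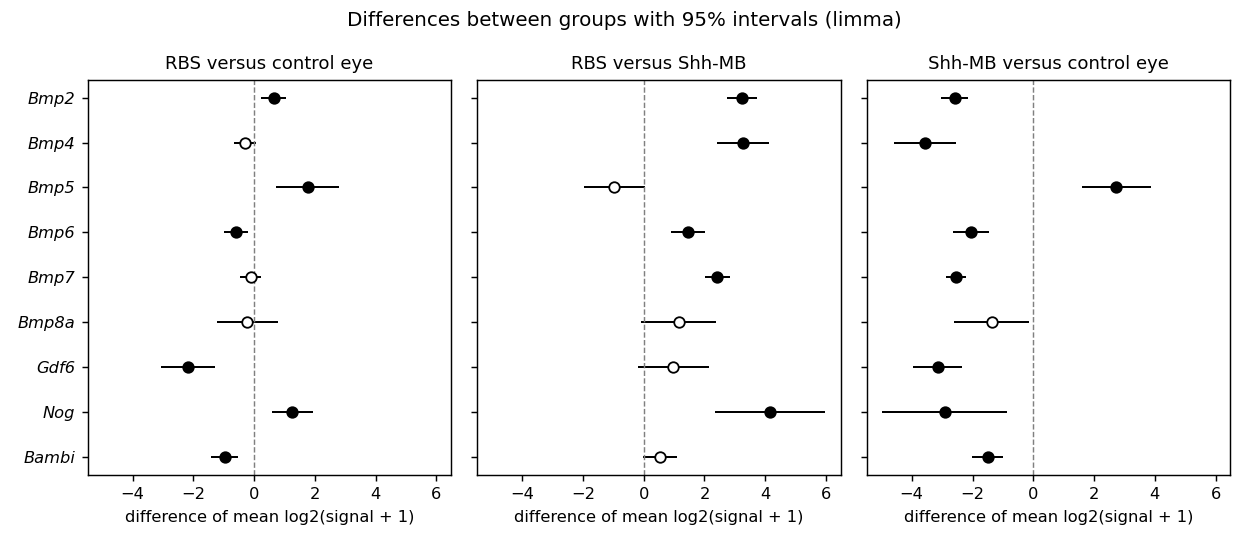
Log2 differences of the 9 members in the 3 comparisons with 95% intervals; filled symbols passed an adjusted p of 0.05. *Nog* and *Gdf6* lie on opposite sides of 0 in *RBS* lesions against control eyes (1.26 and -2.18).

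The lesions varied among themselves. *RBS* lesions 1 and 4 had the highest signal of the 5 for *Bmp2*, *Bmp7* and *Nog*. *RBS* lesion 4 had the lowest for *Bmp6*, *Bmp5*, *Bmp8a* and *Bambi*. Lesion 1 also had the fewest counts above background, 335392, and the part of depth in this spread was not tested. Leaving out any 1 lesion or control eye kept 6 members called each time.

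Ratios of 2 genes within a sample do not depend on the scaling of the sample, but probes differ in efficiency, so a ratio can be compared between samples and does not show which gene is more abundant. They are given as descriptions, without a test. The ratio of *Nog* to *Bambi* was 0.318 to 0.472 in control eyes and 1.05 to 3.60 in *RBS* lesions, with medians of 0.349 and 1.66. For *Nog* to *Bmp4* the ranges were 0.199 to 0.439 and 0.665 to 1.24. Both ratios with *Nog* separated lesions from control eyes completely. For *Nog* to *Bambi* this follows from the 2 genes, since each separated the groups, in opposite directions. *Bmp2* to *Bmp4* ran from 0.377 to 0.549 in control eyes and from 0.571 to 1.06 in lesions, with 1 lesion close to the control range. *Bmp5* to *Bmp6* ran from 0.0159 to 0.0854 and from 0.157 to 0.399, without overlap, which likewise follows from the 2 genes. The lowest control ratios, 0.0159 and 0.0201, rest on *Bmp5* signals that give no readable level. *Bmp7* to *Bmp4* overlapped, at 1.40 to 1.80 and 1.34 to 2.09.

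**Figure D3:**
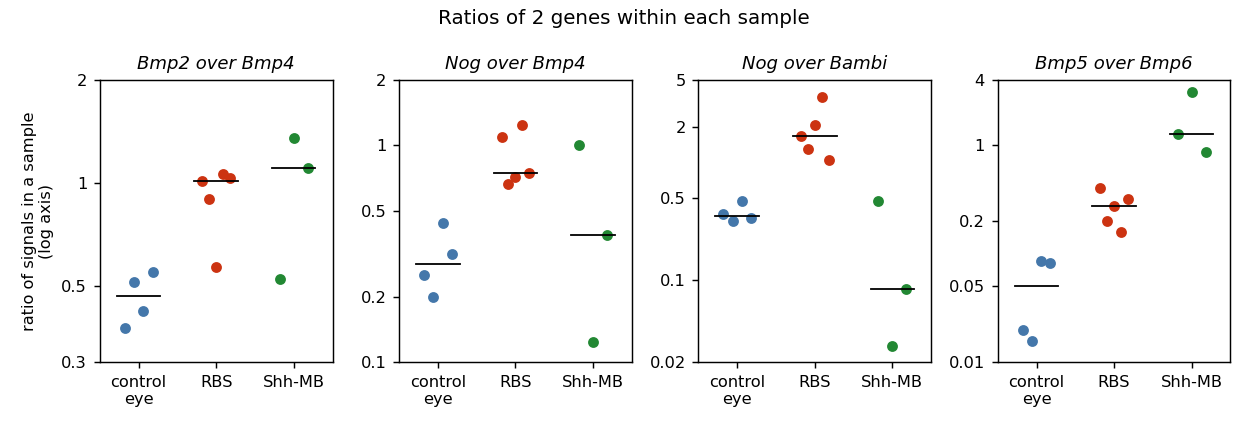
Ratios of the signals of 2 members within each sample (log axes), with lines at the group medians. For *Nog* over *Bambi* the *RBS* lesions lie at 1.05 to 3.60, above the control eyes at 0.318 to 0.472.

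Comparing *RBS* lesions with Shh-MBs set the lesions beside a tumor of Shh activation without the *Ctnnb1* allele. *Bmp2*, *Bmp4*, *Bmp6*, *Bmp7* and *Nog* were higher in *RBS* lesions, and no member was lower. These 5 of 9 called members compare with 60.8% of all genes called, 48.1% higher and 12.7% lower. The same 5 did not overlap, against 59.9% of all genes. The methods' t-test called 2 members with step-down Bonferroni and 4 with Benjamini-Hochberg adjustment. The median difference was 1.46 over the members and 0.53 over all genes, and the members' median went to 0.61 after median centring and 0.48 after quantile normalization.

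In Shh-MBs 1 to 3, *Bmp2* signal was 13.7, 10.8 and 9.12, and *Bmp4* signal was 26.0, 8.03 and 8.27. Both genes were far below all *RBS* lesions, by 3.23 (SE 0.201, adjusted p = 5.87e-06) and 3.27 (SE 0.360, adjusted p = 0.000105) on the log2 scale. *Bmp7* was 41.7, 45.5 and 37.1 in Shh-MBs, a log2 difference of 2.42 (SE 0.162, adjusted p = 9.39e-06), and its spread was small in each group. *Bmp6* was 21.5, 11.8 and 20.1, a log2 difference of 1.46 (SE 0.226, adjusted p = 0.000672). That call was lost after quantile normalization (log2 difference 0.0073, adjusted p = 0.977).

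*Nog* signal was 26.0, 1 and 3.18 in Shh-MBs, where the second tumor stood at its lowest value, so the tumors ranged from no readable level to near the lowest control eye. The fitted log2 difference from *RBS* lesions was 4.17 (SE 0.767, adjusted p = 0.00167), and with a sample at its lowest value its size depends on the added 1. It ranged from 3.37 without Shh-MB 2 to 5.24 without Shh-MB 1. With the methods' t-test and Benjamini-Hochberg adjustment the *Nog* call was lost (adjusted p = 0.0989).

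*Bmp5*, *Bmp8a*, *Gdf6* and *Bambi* were not called between *RBS* lesions and Shh-MBs. *Bmp5* was 27.1, 36.1 and 17.6 in Shh-MBs, overlapping the lesions, with a log2 difference of -0.97 (95% interval -1.94 to 0.01, adjusted p = 0.0767). It was called lower in lesions under each of the 3 other scalings, that is after median centring (-1.82, adjusted p = 0.00558), after quantile normalization (-2.25, adjusted p = 0.00178) and after scaling to the total less the 3 most abundant genes (-1.33, adjusted p = 0.0261), and without *RBS* lesion 1 (adjusted p = 0.0457). *Gdf6* was 3.63, 2.41 and 7.42 (log2 difference 0.97, 95% interval -0.15 to 2.10, adjusted p = 0.117) and *Bambi* 55.1, 36.1 and 38.0 (0.53, 95% interval 0.01 to 1.06, adjusted p = 0.0707). The direction of these 2 depended on the scaling, since *Bambi* turned to -0.31 after median centring and -0.57 after quantile normalization, and *Gdf6* to -0.36 after the latter. *Bambi* was called higher in lesions without Shh-MB 1 (0.72, adjusted p = 0.0286) or without *RBS* lesion 4 (adjusted p = 0.0486). *Bmp8a* was at the lowest value in Shh-MBs 1 and 2 and at 4.87 in the other, with a log2 difference of 1.15 (95% interval -0.05 to 2.35, adjusted p = 0.0847), and it was called without Shh-MB 3 (1.66, adjusted p = 0.0249) or without *RBS* lesion 4 (adjusted p = 0.0487).

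Shh-MBs against control eyes shares its samples with both comparisons above, so its values are set beside them and are no separate evidence. Here 8 of 9 members were called, 7 lower in Shh-MBs and *Bmp5* higher, against 41% of all genes called, 9.61% higher and 31.4% lower. The same number, 8, did not overlap, against 48.2% of all genes. With the methods' t-test and step-down Bonferroni adjustment 1 member was called. With Benjamini-Hochberg adjustment of the same test 6 were called, and *Bmp4* (adjusted p = 0.0553) and *Nog* (adjusted p = 0.215) were lost. An exact permutation test called 0 of 770 genes, since its smallest p of 0.0286 adjusts to 0.0703. The median difference was -2.54 for the members and -0.22 for all genes, and the members' median went to -1.88 after median centring and -1.42 after quantile normalization. The log2 differences were -3.57 for *Bmp4* (SE 0.408, adjusted p = 0.000509), -3.15 for *Gdf6* (SE 0.325, adjusted p = 0.000331), -2.58 for *Bmp2* (SE 0.174, adjusted p = 5.38e-05), -2.54 for *Bmp7* (SE 0.119, adjusted p = 1.18e-05) and -2.06 for *Bmp6* (SE 0.235, adjusted p = 0.000509). These 5 ligands thus had a lower signal in Shh-MBs than in control eyes. *Bambi* differed by -1.50 (SE 0.196, adjusted p = 0.000955) and *Bmp5* by 2.73 (SE 0.463, adjusted p = 0.00334). With values under 20 set to 20 the *Bmp5* call was lost (0.41, adjusted p = 0.156). *Nog* differed by -2.91 (SE 0.844, adjusted p = 0.032), a call that was lost when any of control eyes 1 to 4, Shh-MB 2 or Shh-MB 3 was left out (adjusted p up to 0.0981) and after quantile normalization (adjusted p = 0.115). With 1 sample left out its size ranged from -3.99 without Shh-MB 1 to -2.11 without Shh-MB 2. *Bmp8a* was not called (-1.37, SE 0.501, adjusted p = 0.0681), though it was without Shh-MB 3 (-1.88, adjusted p = 0.0182).

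Ordered by level, *Bmp2* and *Nog* were highest in *RBS* lesions, then control eyes, then Shh-MBs, and both steps were called, except that either step of *Nog* could lose its call as given above. *Bmp6* fell from control eyes through *RBS* lesions to Shh-MBs, with both steps called under the deposited scaling and the second lost after quantile normalization. *Bmp4* and *Bmp7* were not called between control eyes and lesions, and both groups were above Shh-MBs. *Gdf6* and *Bambi* were highest in control eyes, with lesions and Shh-MBs not called apart. *Bmp5* was the only member of the 9 whose mean was highest in Shh-MBs (27.0 ± 9.27, SD, n = 3). It was called apart from lesions (14.0 ± 6.73, n = 5) under the 3 other scalings but not the deposited one. It was also called above control eyes (3.51 ± 2.28, n = 4). That call was lost with values under 20 set to 20, with the methods' t-test and step-down Bonferroni adjustment, and with an exact permutation test (adjusted p = 0.0703).

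**Figure D4:**
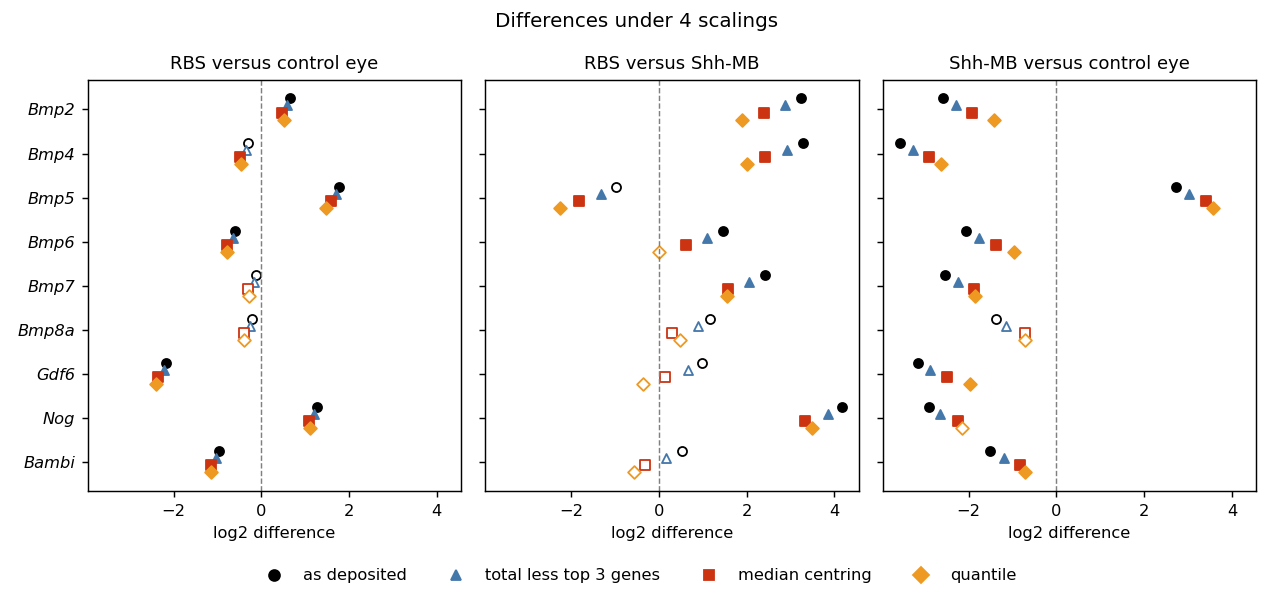
Log2 differences of the members under the deposited scaling and 3 other scalings; filled symbols passed an adjusted p of 0.05. In *RBS* against control the 6 members called keep their call and direction under these scalings, whereas *Bambi* in *RBS* against Shh-MB goes from 0.53 to -0.57.

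Of 42 other listed BMP pathway genes, 11 were on the panel. Between *RBS* lesions and control eyes 6 of the 11 were higher and none lower, where 51.2% of all genes were called, 33% higher and 18.2% lower, so the number called was near that of the panel. The median log2 difference was 0.61 beside 0.17 for all genes. After median centring and after quantile normalization 5 of the 11 were higher and 2 lower. Among the receptors, the type I receptor gene *Bmpr1b* had a signal of 106 to 182 in control eyes and 184 to 422 in lesions, just without overlap (log2 difference 1.11, SE 0.255, adjusted p = 0.00562). The type II receptor gene *Acvr2a*, which also serves activins, had 234 to 298 and 449 to 663 (1.08, SE 0.135, adjusted p = 0.000191). Both receptor genes measured were thus higher in lesions. The panel holds only 1 of 4 listed type I receptors, 1 of 3 type II receptors, 3 of 6 Smads and 3 of 8 targets. The transducer *Smad1* was higher by 0.61 (SE 0.0900, adjusted p = 0.00047), whereas *Smad4* (-0.08, adjusted p = 0.586) and *Smad9* (0.30, adjusted p = 0.526) were not called. *Smad4* was called lower after quantile normalization (-0.35, adjusted p = 0.0290).

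Outside the 9 members, the panel held 2 of 13 genes listed as antagonists, *Fst* and *Sost*. *Fst*, encoding the activin and BMP trap follistatin, was 25.7 to 56.3 in control eyes and 73.8 to 137 in lesions (log2 difference 1.31, SE 0.262, adjusted p = 0.00276). *Sost*, encoding sclerostin, was low throughout, and its log2 difference of 1.30 (SE 0.451, adjusted p = 0.0367) lost its call when any of 7 of the 9 samples (all but *RBS* lesion 1 and control eye 3) was left out (adjusted p up to 0.0749). That call was also lost under each of the 3 other scalings (adjusted p 0.0503 to 0.113). With the methods' t-test and Benjamini-Hochberg adjustment it was lost as well (adjusted p = 0.159). *Amh*, a more distant ligand, stood at the lowest value in all 9 eye samples.

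The *Id* genes did not move together. *Id4* was 688 to 764 in control eyes and 7018 to 8581 in lesions, a log2 difference of 3.39 (SE 0.0908, adjusted p = 3.25e-08). *Id1* (-0.19, adjusted p = 0.247) and *Id2* (-0.20, adjusted p = 0.147) were not called, but both were called lower after median centring (-0.37, adjusted p = 0.0405, and -0.38, adjusted p = 0.0141), and *Id2* also without *RBS* lesion 4 (-0.27, adjusted p = 0.0295).

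**Figure D5:**
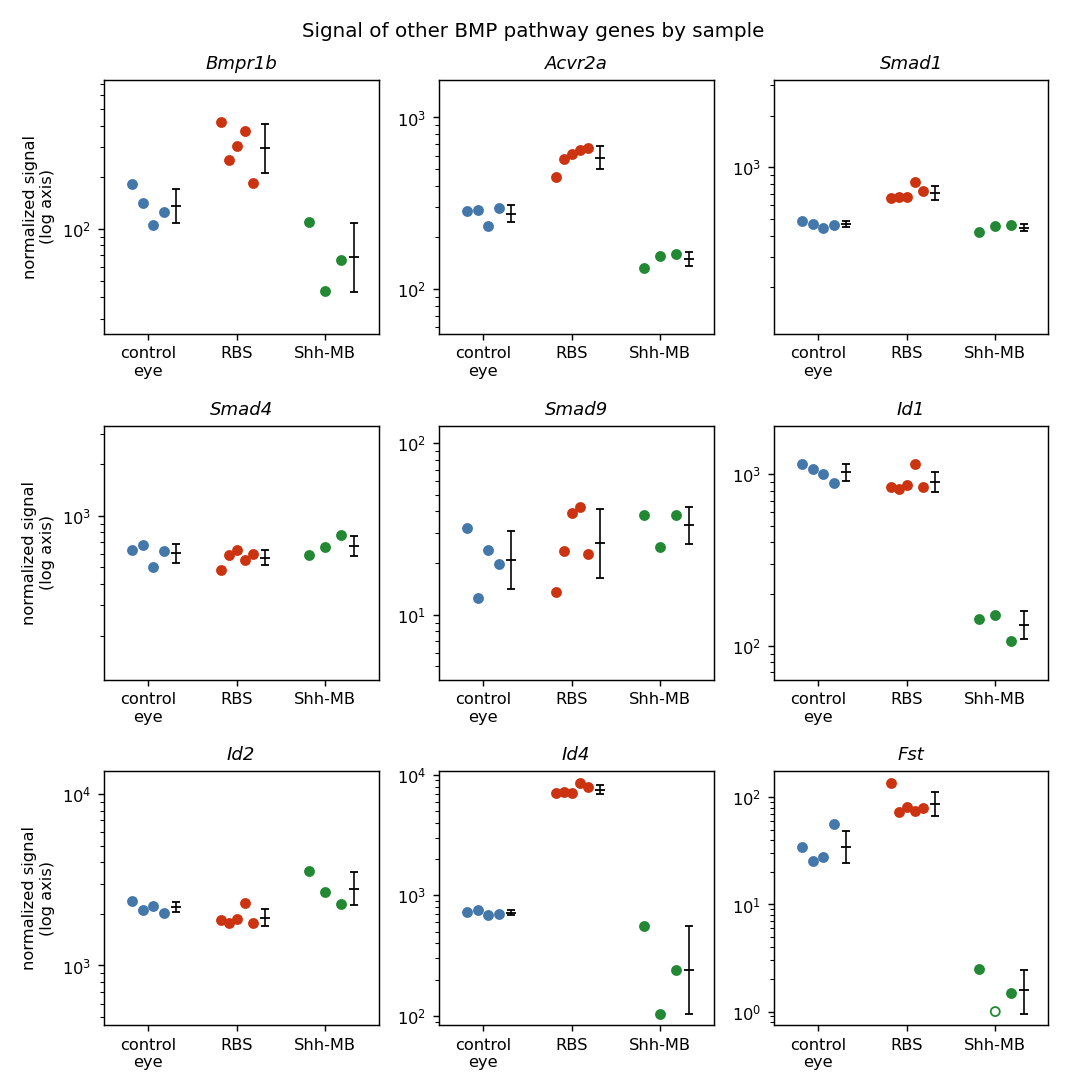
Signal of other BMP pathway genes of the panel in each sample (log axis), with the mean and SD of log2(signal + 1). *Id4* in *RBS* lesions, at 7018 to 8581, stands above all control eyes and Shh-MBs, while *Id1* in lesions overlaps the control eyes.

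Against Shh-MBs, *RBS* lesions had 7 of the 11 genes higher and 1 lower under the deposited scaling, with a median of 0.96 beside 0.53, where 60.8% of all genes were called, 48.1% higher. The split depended on the scaling, with 5 higher and 4 lower after median centring and 5 higher and 3 lower after quantile normalization. *Sost* was among the 7 (0.96, adjusted p = 0.0284), but its call was lost when any of Shh-MBs 2 and 3 and *RBS* lesions 2 to 5 was left out (adjusted p up to 0.109), and its sign turned after quantile normalization (-0.36). The *Sost* call was also lost under each of the 3 other scalings (adjusted p 0.129 to 0.743). *Fst* was 1 to 2.51 in Shh-MBs, with Shh-MB 2 at its lowest value, and gave no readable level there. *Id1* was 106 to 150 in Shh-MBs against 823 to 1142 in lesions (log2 difference 2.76, adjusted p = 5.2e-06). *Bmpr1b* (2.09, adjusted p = 0.00106), *Acvr2a* (1.96, adjusted p = 1.73e-05) and *Id4* (4.96, adjusted p = 4.04e-05) were higher in lesions, and *Id2* was lower (-0.56, adjusted p = 0.0186), a call lost without Shh-MB 1 (-0.39, adjusted p = 0.0548). *Smad1* was higher by 0.68 under the deposited scaling (adjusted p = 0.00072), and its sign turned after median centring (-0.17). Between Shh-MBs and control eyes 4 of the 11 were lower and none higher under the deposited scaling, near the 41% of all genes called, with a median of -0.07 beside -0.22. The direction turned with the scaling. After median centring 5 were higher (*Smad1*, *Smad4*, *Smad9*, *Id2* and *Amh*, by 0.60 to 1.54) and 2 lower, and after quantile normalization 3 were higher and 3 lower. The 4 that were lower were *Fst*, whose call was lost with values under 20 set to 20 (-0.75, adjusted p = 0.0912), *Id1* (-2.95, adjusted p = 1.99e-05), *Id4* (-1.57, adjusted p = 0.0488) and *Acvr2a* (-0.88, adjusted p = 0.0016). The *Acvr2a* call was lost after median centring (-0.21, adjusted p = 0.337). The *Id4* call was lost under each of the 3 other scalings (adjusted p 0.0931 to 0.110) and when any sample other than Shh-MB 1 was left out (adjusted p up to 0.112).

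For each member the panel genes of the nearest profile over the 12 samples were found by the root mean square distance on log2(signal + 1), each gene centred on its mean, over 761 genes. *Bmp7* lay nearest to *Id1* (0.201) and *Wnt5b* (0.236). *Bmp4* lay nearest to *Notch1* (0.273) and *Dll1* (0.299), and *Bmp2* to *Efna5* (0.292) and *Jag2* (0.316). *Bmp6* was nearest to *Tnfrsf10b* (0.249) and *Shc1* (0.301), and *Bambi* to *Fbxw7* (0.272) and *Col11a1* (0.279). *Bmp8a* (*Clcf1*, 0.465, and *Tgfbr2*, 0.535), *Gdf6* (*Myb*, 0.449, and *Rasa4*, 0.649), *Nog* (*Itga3*, 0.610, and *Notch3*, 0.613) and *Bmp5* (*Pdgfa*, 0.721, and *Rel*, 0.746) had neighbours at larger distances. These distances grow with a member's own spread over the samples, whose SD ran from 0.67 for *Bambi* to 1.95 for *Nog*, and do not rank the members by likeness. The points share scaling and the differences between the 3 groups, which dominate such distances.

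Summed signals of cell type markers differed between the groups. The panel holds none of the 11 neural retina, 6 lens, 6 retinal pigment epithelium and 5 muscle markers listed, so the eye label could not be checked against those. *Zic2*, the single one of 6 listed markers of the cerebellar granule neuron lineage on the panel, was 924 to 1142 in Shh-MBs, above the 223 to 385 of all eyes. For 7 of 11 mesenchyme markers on the panel the summed signal was 25546 to 57829 in control eyes, 19843 to 36410 in the lesions and 1475 to 2099 in the tumors. Surface epithelium markers (7 of 11) summed to 340 to 637, 594 to 1069 and 16.1 to 25.3, with 4 of 7 higher in lesions than in control eyes and none lower. Both sums were far lower in Shh-MBs, as were *Bmp2*, *Bmp4*, *Bmp6* and *Bmp7*, and in each list 6 of 7 markers were lower there than in control eyes, where 31.4% of all genes were lower. Of the mesenchyme markers 2 of 7 were lower and none higher in lesions than in control eyes, where 18.2% of all genes were lower, and the sums overlapped. The mesenchyme marker *Pdgfra* went the other way, with means of 349 in control eyes and 982 in Shh-MBs (log2 difference 1.53, adjusted p = 0.00505). Neuron markers (6 of 10) summed to 556 to 726, 2280 to 3045 and 354 to 555, with 5 of 6 higher in lesions than in control eyes, where 33% of all genes were higher. *Mapt* made up most of that sum and was lower in Shh-MBs than in control eyes (-1.02, adjusted p = 0.00317), whereas *Grin1* (1.90), *Grin2b* (0.93) and *Cacna1e* (2.91) were higher there. Endothelium was represented by 2 of 6 markers, whose sum was 1683 to 2163, 622 to 858 and 93.8 to 196, and blood and immune cells by 7 of 10, at 105 to 156, 198 to 264 and 130 to 247, with 3 of 7 higher in lesions than in control eyes. The lower endothelium sum of lesions against control eyes was that of *Kdr* (-1.49, adjusted p = 4.32e-05), while *Flt1* was not called (0.12, adjusted p = 0.771). The part of these cell types in the differences of the BMP genes was not tested, and in whole tissue fewer cells of a type and less RNA per cell cannot be told apart.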

How the data were processed

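Total RNA of 12 fresh-frozen samples (5 *RBS* lesions, 4 control eyes and 3 Shh-MBs) was measured by the authors on the nCounter mouse PanCancer Pathways panel. The deposited values are normalized signal, for which the submitters' processing notes name nSolver Analysis Software 4.0.70 and nCounter Advanced Analysis Software 2.0.115. Whole counts could not be recovered from these values, so no count test was run. The reference genes and the background setting are not given in the sources used here.

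Differences were tested on log2(signal + 1) with limma 3.58.1 in R 4.3.3, each comparison fitted on its own 2 groups, two-sided, with Benjamini-Hochberg adjustment over 770 genes and a threshold of 0.05. The pipeline was tested on simulated data. Members and lists were chosen with earlier results of these data known. All members were named, as were the pathway genes called, the *Id* genes, the BMP receptors and the 2 nearest genes of each member. Gene symbols matched RefSeq directly for 760 of 770 genes, and all 9 members matched. Tables and figures were made with Python 3.11.15, pandas 2.3.3 and matplotlib 3.10.9. Alternatives were the methods' t-test with Welch correction, run without the permutations that the methods name, an exact permutation test, other limma settings, 3 other scalings, filters on values under 20, a pseudocount of 5, a replicate block and leaving out each sample. The spread of animals sets the p-values, and with 3 to 5 animals a group their precision is limited.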

Additional observations from a re-analysis of the deposited data

Results flagged for a closer look

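*Bmp8a* in control eye 4 had a signal of 13.6, set apart from the other 3 control eyes at 4.59 to 5.43. Its gap to the nearest of them was 0.855 of the range of the group, above the critical 0.829. Of 18 groups of 4 or 5 samples examined, this was 1, and chance marks about 1 in 20.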

How the results depend on the processing

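Apart from leaving out samples, 93 of 104 member results for *RBS* against control, 88 of 103 for *RBS* against Shh-MB and 83 of 103 for Shh-MB against control kept their direction and their side of the threshold. Comparisons below are in this order. The methods' t-test (Welch correction, p from the t distribution and not from the permutations that the methods name) with step-down Bonferroni called 72, 80 and 36 genes, 0, 2 and 1 members (6, 4 and 7 at an unadjusted p under 0.05) and 2, 3 and 0 of the pathway list (5, 6 and 3 unadjusted). Its Benjamini-Hochberg counts were 347, 380 and 217 genes, and 6, 4 and 6 members. limma called 394, 468 and 316 genes, and 6, 5 and 8 members. For Shh-MB against control the exact permutation test called 0 genes, 0 members and 0 pathway genes, because its smallest p of 0.0286 adjusts to 0.0703. At an unadjusted p under 0.05 it had 313 genes, 8 members and 4 pathway genes. In that comparison the pathway list had 7 calls after median centring (5 higher and 2 lower) and 2 with values under 20 set to 20, and 5 members of 5 tested were called with low genes left out.

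Signs turned in *RBS* against control for *Amh* (-0.12 after median centring), in *RBS* against Shh-MB for *Bambi* (-0.31 after median centring, -0.57 after quantile normalization), *Gdf6* (-0.36, quantile), *Smad1* (-0.17, median) and *Sost* (-0.36, quantile), and in Shh-MB against control for *Smad1* (0.60 median, 0.20 quantile, 0.25 scaled to the total less the 3 most abundant genes). After quantile normalization 50.8%, 46.2% and 59.9% of calls were higher, and 61.6%, 62.5% and 47.5% after scaling to that total.

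Leaving out 1 sample at a time gave 350 to 392, 423 to 478 and 250 to 313 genes, 6 to 6, 5 to 7 and 7 to 8 members, and 5 to 6, 7 to 8 and 3 to 6 pathway genes. The log2 difference then ranged from -0.42 to 0.10 for *Bmp8a* and from -0.0158 to 0.0845 for *Amh* (*RBS* against control), and from -0.13 to 0.73 for *Sost* (Shh-MB against control). Same-numbered samples shared only a number, with correlations of -0.148 to 0.188, -0.0173 to 0.0844 and -0.0811 to -0.0169, and 2 of 4, 1 of 3 and 0 of 3 correlated best with their own number. With the replicate block, which leaves out samples whose number is not shared, 301, 407 and 230 genes, 5, 7 and 7 members and 6, 6 and 3 pathway genes were called. The members whose call changed were *Bmp5* in *RBS* against control (1.61, adjusted p = 0.0566), *Gdf6* (1.55, adjusted p = 0.0181) and *Bambi* (0.56, adjusted p = 0.0253) in *RBS* against Shh-MB, both then called higher, and *Nog* in Shh-MB against control (-2.92, adjusted p = 0.0718). *Bmp8a*, and *Gdf6* between *RBS* and Shh-MB, gave no value with signals under 20 set to 20. The cause of these changes was not tested. Genes near the lowest values, such as *Bmp8a*, *Bmp5* in control eyes and *Nog* in Shh-MBs, are limited by signal over background.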
